A study of Homo sapiens with 12 samples.

Results

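SREBF1 and 9 genes of fatty acid synthesis and desaturation (FASN, ACACA, ACLY, ACSS2, SCD, ELOVL6, FADS1, FADS2 and ME1) were followed across 4 treatments of A375 cells. They were taken by name from the deposited gene table, in which these 10 genes are 10 of 26475 rows, and all 10 passed the filter on low counts. A375 is an established human melanoma line that carries an activating BRAF mutation. Cells were treated for 24 h with 1 µM GSK343 plus 1 µM XL413, with 1 µM GSK343 alone, with 1 µM XL413 alone, or with the solvent DMSO. GSK343 inhibits EZH2, the histone methyltransferase of Polycomb repressive complexes, and XL413 inhibits CDC7, a kinase that starts DNA replication. Each treatment had 3 biological replicates by the study's own account, all of the same line, which gave 12 libraries of poly-A RNA.

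SREBF1 encodes SREBP1, a transcription factor that is made as a membrane-bound precursor in the endoplasmic reticulum. When sterols are low, the escort protein SCAP carries the precursor to the Golgi, where proteases release the part that enters the nucleus, and INSIG proteins hold it back when sterols are high. SREBP1 is known chiefly for activating genes of fatty acid synthesis, and its relative SREBP2, encoded by SREBF2, chiefly for activating genes of cholesterol synthesis. Of the enzymes, ACLY and ACSS2 supply acetyl-CoA, ME1 supplies NADPH, ACACA makes malonyl-CoA and FASN builds palmitate. ELOVL6 and SCD lengthen or desaturate the product, while FADS1 and FADS2 are desaturases of polyunsaturated fatty acids. The RNA counts measure neither the cleavage of SREBP1 nor the activity of EZH2 or CDC7.

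Total expected counts, the estimated reads assigned to genes, were 31553205 to 39079931 per library. GSK343+XL413 replicate 2 stood apart: the SD across genes of its log2 deviation from its partner libraries was 0.277, against 0.134 to 0.178 in the other 11 libraries, and longer transcripts had lower deviations (Spearman's rho −0.64 over genes, which are not independent replicates). The same rho ran between −0.45 and 0.57 among the 11 other libraries. Values without this library are given for many results but not for all, so a result printed without such a value was not necessarily unchanged. Of the melanoma markers, SOX10 was at 296 to 370.1 CPM (counts relative to the TMM-scaled library size), MITF at 36.6 to 50.5 CPM and AXL, a receptor tyrosine kinase of dedifferentiated melanoma, at 338 to 486 CPM. AXL fell by 0.48 with GSK343+XL413 and by 0.38 with XL413 against DMSO (edgeR adjusted p = 0.000179 and 0.00481). The pigment gene TYR was listed at 0 in every library, and MLANA and DCT reached no more than 0.204 and 0.143 CPM, so that these pigment-cell markers were absent or nearly so. Summed over 10 genes, the melanoma markers were at 784 to 809 CPM with GSK343+XL413 and 855 to 908 with GSK343. They were at 834 to 895 with XL413 and 935 to 979.9 with DMSO. SOX10 and AXL carried this sum, and the part of its shift in the results was not tested. S100A1 rose by 0.24 with GSK343+XL413 against DMSO (edgeR adjusted p = 0.0448), a call lost without GSK343+XL413 replicate 2 (0.16, adjusted p = 0.106). Without that library the 7 tested markers had a median log2 fold change against DMSO of 0.0937 with GSK343, 0.0396 with XL413 and 0.0147 with GSK343+XL413. Other cell types' markers were checked as summed CPM. The 7 leukocyte markers summed to 274 to 298 with GSK343+XL413, 244 to 270 with GSK343, 240 to 255 with XL413 and 222 to 233 with DMSO, carried by HLA-DRA and CD68, while PTPRC did not exceed 0.0875 CPM. HLA-DRA and LAPTM5 rose by 0.36 and 0.91 on the log2 scale with GSK343+XL413 against DMSO (adjusted p = 0.00125 and 0.00733), and the part of these markers in the results was not tested. The 7 epithelial markers summed to 27.3 to 38.2 over all libraries, carried by KRT14 at 18.2 to 24.3 CPM and CLDN4 at 7.80 to 12.5 CPM. EPCAM and CDH1 were at no more than 0.224 CPM. The 7 fibroblast markers summed to 139 to 249, with COL1A1 at 52.6 to 113 CPM and COL1A2 at 55.6 to 102.5 CPM.

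RefSeq promoter windows (GRCh38.p14, the 250 bases before an annotated start) were found for 9 of the 10 genes, and not for FASN. The windows of SREBF1, SCD and ME1 are shown because these genes changed in at least 1 comparison and their windows reach beyond the outermost start in GENCODE 29; only that outer stretch is printed, on the gene's own strand. Capitals mark GGGCGG, the core of a GC box, or CCAAT, the core of a CCAAT box, on either strand, so that CCGCCC is a GC box read backwards. The SREBF1 stretch lies at chr17:17837003-17837236 (minus strand), the SCD stretch at chr10:100346983-100347123 (plus strand) and the ME1 stretch at chr6:83431072-83431301 (minus strand).
SREBF1: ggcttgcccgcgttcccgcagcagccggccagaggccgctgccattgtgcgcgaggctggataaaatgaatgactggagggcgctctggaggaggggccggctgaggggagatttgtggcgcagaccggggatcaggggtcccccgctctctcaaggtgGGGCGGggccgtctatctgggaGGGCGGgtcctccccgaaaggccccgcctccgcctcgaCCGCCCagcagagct
SCD: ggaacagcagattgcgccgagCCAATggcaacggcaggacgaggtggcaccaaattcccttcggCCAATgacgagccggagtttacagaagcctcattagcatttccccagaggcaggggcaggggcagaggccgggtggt
ME1: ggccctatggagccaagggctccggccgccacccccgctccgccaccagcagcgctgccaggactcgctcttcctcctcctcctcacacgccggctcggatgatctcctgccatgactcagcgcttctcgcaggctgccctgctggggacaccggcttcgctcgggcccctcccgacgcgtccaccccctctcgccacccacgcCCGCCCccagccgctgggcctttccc
The SREBF1 stretch holds 3 GC boxes and the letters CCAAT on neither strand. The SCD stretch holds CCAAT at 2 places, 229 and 186 bases before the start.

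Across the full windows, searched on both strands, at least 1 GGGCGG was present in 12 of the 14 windows of these 9 genes, against 42.6% of 35116 RefSeq promoters, and CCAAT in 6 of 14 (windows of ACACA, ACLY, ACSS2 and SCD), against 32% of promoters. Windows of 1 gene can overlap. The sterol response element of the form TCACNCCAC was in 0 of 14 (0.883% of promoters), the related form TCACNTGA in 0 of 14 (3.2%) and the E-box CACGTG in 0 of 14 (6.34%). Among 16 genes of cholesterol synthesis and uptake that had a window, TCACNCCAC was found in 0, TCACNTGA in 1 and CACGTG in 1. The absence of TCACNCCAC was thus shared by these cholesterol genes, and that of TCACNTGA and CACGTG was not. Each of these motifs is rare among all promoters. Such low counts cannot tell whether an absence was particular to the fatty acid genes. The GGGCGG and CCAAT matches do not overlap in the printed stretches. A match is a run of letters and does not show binding, and a window without a match says nothing of sites elsewhere.

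Levels between genes were compared per kb of the longest GENCODE transcript. In DMSO cells ACLY was at the top with 88.8 ± 1.10 CPM per kb (SD, n = 3), before FASN with 67.5 ± 0.868, SCD with 43.3 ± 0.298, FADS1 with 37.2 ± 0.411 and SREBF1 with 22.6 ± 0.624. ACACA followed with 11.3 ± 0.411, FADS2 with 9.97 ± 0.0622, ME1 with 9.04 ± 0.376, ACSS2 with 7.71 ± 0.331 and ELOVL6 with 6.76 ± 0.156 CPM per kb. Each neighbouring pair in this order differed by more than its 2 SDs added together. These SDs cover the spread between the DMSO libraries only. They do not cover the choice of transcript length or the estimated division of reads between FADS1 and FADS2. By CPM alone, FASN (578 in DMSO cells) lay above ACLY (385). In GSK343+XL413 cells the means of ME1, ACACA, ACSS2 and FADS2 lay between 9.88 and 10.9 CPM per kb, and no order among them was read, since ACACA spread widely between those libraries.

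The group means of a gene differed by 1.053-fold (ACLY) to 1.34-fold (SREBF1) between the highest and the lowest treatment. SREBF1 was lower in both groups that received GSK343, and ACSS2 was higher with each compound and with both. SCD was higher with GSK343 alone, and ME1 was higher and FASN lower with both compounds together. These calls against DMSO were not equally firm when each library was left out in turn. That of ACSS2 held in 1 of 12 fits with GSK343, 8 with XL413 and 12 with both. The calls held in 8 of 12 fits for SCD, 9 for FASN and 12 for ME1. For SREBF1 they held in 11 with GSK343 and 12 with both compounds. ACLY, which was the most abundant per kb, passed the test in 0 comparisons by edgeR's quasi-likelihood test, as did ELOVL6, FADS2, FADS1 and ACACA over all 12 libraries. Bulk RNA cannot tell apart fewer cells that make a transcript and less transcript per cell.

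**Figure D1:**
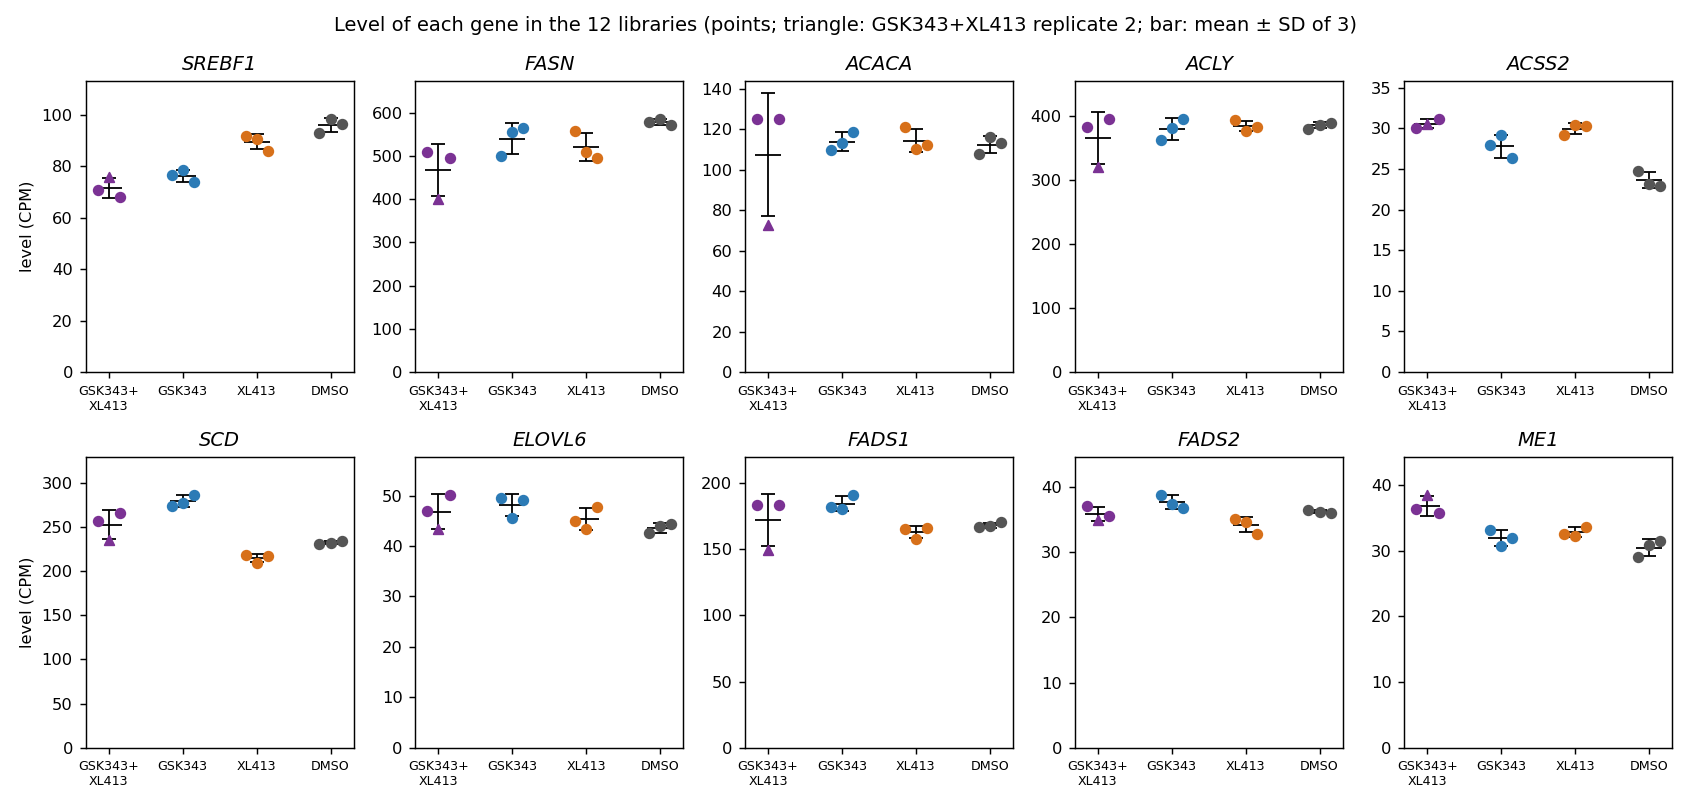
Level in CPM of each gene (panels, linear axes from 0) in the 12 libraries. Points are libraries, triangles are GSK343+XL413 replicate 2, and bars are the mean ± SD of 3 libraries. SREBF1 lay at 68.2 to 78.4 CPM in the 6 libraries with GSK343 and at 86.1 to 98.4 CPM in the 6 without it. The share of all genes with such a separation was not counted.

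With GSK343 against DMSO, 3 of the 10 genes were called at an adjusted p under 0.05, SCD and ACSS2 higher and SREBF1 lower, where 1.17% of the 15443 tested genes were called. The median log2 fold change was 0.0613 over the 10 genes and 0.00108 over all tested genes. With XL413 against DMSO, only ACSS2 was called, where 0.427% of all genes were. With GSK343+XL413 against DMSO, 4 of 10 were called, ACSS2 and ME1 higher and SREBF1 and FASN lower, where 13.9% of all genes were. The medians in these 2 comparisons were −0.0246 and 0.00887 over the 10 genes, and −0.00681 and 0.00601 over all genes. The 3 comparisons share the DMSO libraries, so they are not independent of each other. With 3 libraries a group, 25.2%, 28.1% and 33.7% of all tested genes had no overlap with DMSO, in either direction, with GSK343, XL413 and GSK343+XL413. For GSK343+XL413 that share was 19.85% against XL413 and 21.3% against GSK343, and for GSK343 against XL413 it was 28.7%.

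Without GSK343+XL413 replicate 2, 8 of the 10 genes were called with GSK343+XL413 against DMSO, 6 higher and 2 lower, where 15% of all genes were. SCD, ACACA, ELOVL6 and FADS1 joined the higher genes there, and ACLY and FADS2 were the 2 not called. With GSK343 against DMSO the same omission gave 4 of 10 (FADS1 in addition), where 6.15% of all genes were called. All comparisons share 1 estimate of the spread, so this library touched also those that do not contain it.

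**Figure D2:**
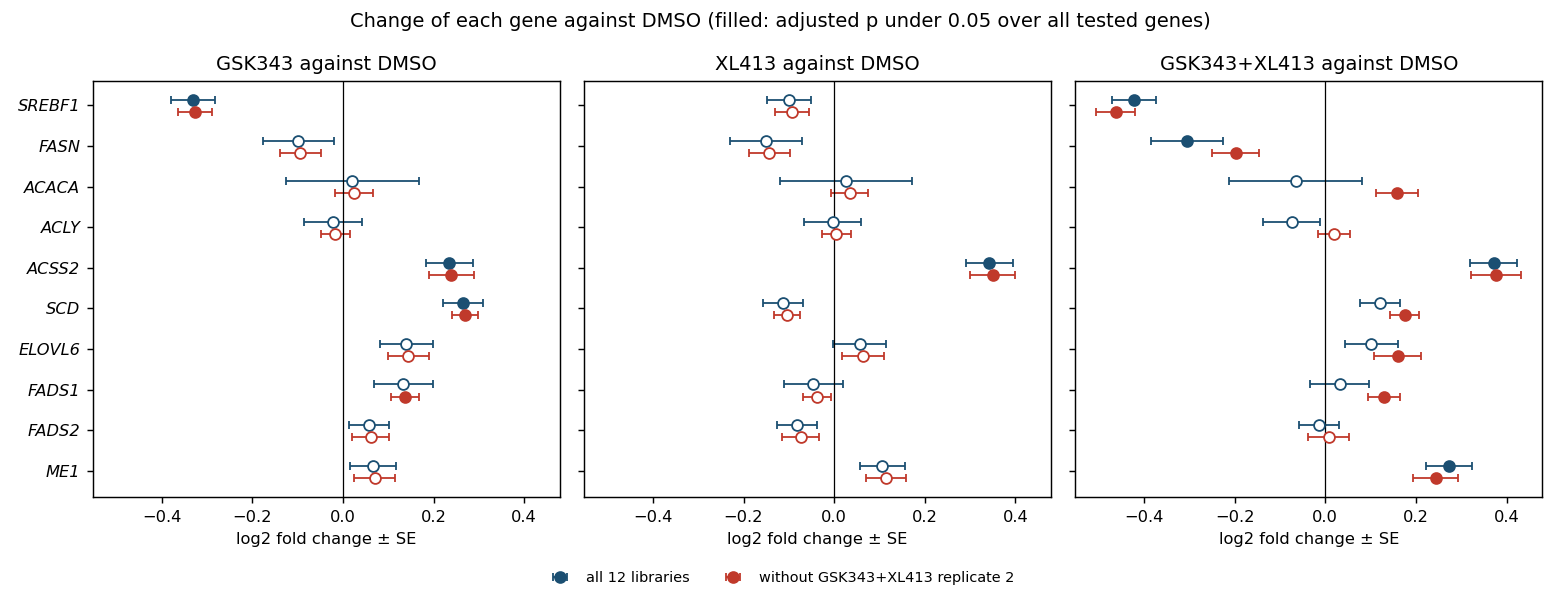
Log2 fold change ± SE of each gene with GSK343, XL413 and GSK343+XL413 against DMSO, from all 12 libraries (blue) and without GSK343+XL413 replicate 2 (red). Filled points have an adjusted p under 0.05 over all tested genes. SREBF1 lay at −0.33 with GSK343 and −0.42 with GSK343+XL413, and the estimate for ACACA with GSK343+XL413 changed its sign, to 0.16, without that library.

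SREBF1, the transcription factor of the group (chromosome 17, 17810399 to 17837002 of GRCh38, minus strand), had 70.7, 75.9 and 68.2 CPM with GSK343+XL413, 76.6, 78.4 and 73.8 CPM with GSK343, 91.7, 90.8 and 86.1 CPM with XL413, and 93.1, 98.4 and 96.4 CPM with DMSO. All 6 libraries with GSK343 lay below all 6 without it, and the GSK343+XL413 and GSK343 libraries overlapped. The share of all genes that separate these 6 and 6 libraries was not counted. Between groups of 3, 25.2% and 33.7% of all genes had no overlap with DMSO with GSK343 and GSK343+XL413. Against XL413 these shares were 28.7% and 19.85%. Levels fell to 76.3 ± 2.34 CPM in GSK343 cells, against 96 ± 2.66 CPM in DMSO cells (SD, n = 3 each), a log2 fold change of −0.33 ± 0.048 (SE, edgeR adjusted p = 0.00535, 1.26-fold lower). With each library left out in turn, that call held in 11 of 12 fits and was lost without DMSO replicate 2 (adjusted p = 0.0522). With GSK343+XL413 the level was 71.6 ± 3.96 CPM, and the log2 fold change was −0.42 ± 0.048 against DMSO (adjusted p = 0.000364) and −0.32 ± 0.048 against XL413 (adjusted p = 0.00628), both held in 12 of 12 such fits. The second was lost in a fit of only these 2 groups (adjusted p = 0.114). Without GSK343+XL413 replicate 2, whose SREBF1 level was the highest of its group, the difference from DMSO was −0.46 ± 0.043 (adjusted p = 1.35e-05) and that from XL413 was −0.37 ± 0.043. XL413 alone gave −0.10 ± 0.048 against DMSO (edgeR adjusted p = 0.382), and its 95% interval ran from −0.20 to 0.0038. All 3 XL413 libraries lay below all 3 DMSO libraries, in a comparison where 28.1% of all genes had no overlap.

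SREBF1 was also lower with GSK343 than with XL413, by a log2 fold change of −0.23 ± 0.048 (adjusted p = 0.0206), a call that was lost when GSK343 replicate 1 or 3, or XL413 replicate 1 or 2, was omitted (highest adjusted p = 0.0937). Adding XL413 to GSK343 gave −0.09 ± 0.049 (adjusted p = 0.31), and −0.14 ± 0.043 (adjusted p = 0.134) without GSK343+XL413 replicate 2. The row sums all isoforms of SREBF1, so transcripts from its separate start sites were not told apart. Its 3′ end overlaps RAI1 on the other strand by 1055 bases, and its expected count was a fraction in 3 of 12 libraries. The protocol keeps strand, but the strand setting of the counting is not given in the sources used here.

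Among the suppliers of acetyl-CoA and NADPH, ACSS2 and ME1 were higher and ACLY did not pass the test. ACSS2 encodes the enzyme that makes acetyl-CoA from acetate (chromosome 20, 34872146 to 34927962, plus strand), and the gene overlaps GGT7 on the other strand by 715 bases. It had 30.0, 30.6 and 31.2 CPM with GSK343+XL413, 27.9, 29.2 and 26.3 CPM with GSK343, 29.2, 30.5 and 30.3 CPM with XL413, and 24.8, 23.2 and 22.9 CPM with DMSO. Each of the 9 treated libraries lay above all 3 DMSO libraries. Of all genes, 33.7%, 25.2% and 28.1% had no overlap with DMSO with GSK343+XL413, GSK343 and XL413. The log2 fold change against DMSO was 0.37 ± 0.052 with GSK343+XL413 (adjusted p = 0.00118), held in 12 of 12 leave-one-out fits and at 0.38 without replicate 2 of that group. With XL413 it was 0.34 ± 0.052 (adjusted p = 0.0113), lost when replicate 2 or 3 of DMSO or of XL413 was omitted (highest adjusted p = 0.0796). With GSK343 it was 0.23 ± 0.052 (adjusted p = 0.0492), held in 1 of 12 such fits, the one without GSK343+XL413 replicate 2 (adjusted p = 0.0114), and at adjusted p values as high as 0.194 in the others; it was lost also with no filter on low counts (adjusted p = 0.0669) and with the replicate block (adjusted p = 0.0817).

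For ACSS2 the effect of both compounds minus the sum of the single effects, the interaction on the log2 scale, was −0.20 ± 0.073 and did not pass the test (edgeR unadjusted p = 0.0144, adjusted p = 0.989). Setting GSK343+XL413 against GSK343 gave 0.14 ± 0.051 (adjusted p = 0.167) and against XL413 0.03 ± 0.051 (adjusted p = 0.815). GSK343 against XL413 gave −0.11 ± 0.051 (adjusted p = 0.274).

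ME1 encodes the cytosolic malic enzyme, which yields NADPH (chromosome 6, 83210389 to 83431071, minus strand). It had 36.3, 38.5 and 35.7 CPM with GSK343+XL413, 33.1, 30.7 and 31.9 CPM with GSK343, 32.6, 32.2 and 33.6 CPM with XL413, and 29, 30.9 and 31.5 CPM with DMSO. The 3 GSK343+XL413 libraries lay above the other 9, and the GSK343 libraries overlapped those with DMSO. Of all genes, 33.7%, 21.3% and 19.85% had no overlap between GSK343+XL413 and DMSO, GSK343 and XL413. The log2 fold change with GSK343+XL413 against DMSO was 0.27 ± 0.050 (adjusted p = 0.0048), held in 12 of 12 leave-one-out fits, and 0.24 ± 0.049 (adjusted p = 0.00466) without GSK343+XL413 replicate 2. GSK343 alone gave 0.07 ± 0.050 (adjusted p = 0.617) and XL413 alone 0.11 ± 0.050 (adjusted p = 0.375). Against GSK343, GSK343+XL413 gave 0.21 ± 0.050 (adjusted p = 0.0672; 0.0313 by DESeq2), and against XL413 0.17 ± 0.050 (adjusted p = 0.158).

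ACLY, the enzyme that splits citrate into acetyl-CoA and oxaloacetate, averaged 366 ± 40.5 CPM with GSK343+XL413, 379 ± 16.5 with GSK343, 384 ± 8.11 with XL413 and 385 ± 4.78 with DMSO (SD, n = 3 each). Its log2 fold changes against DMSO were −0.07 ± 0.064 with GSK343+XL413, −0.02 ± 0.064 with GSK343 and −0.0034 ± 0.064 with XL413 (adjusted p = 0.463, 0.924 and 0.987), and in each case the libraries overlapped. The last was above 0 under 7 alternative settings, at no more than 0.0155, and each of the 3 turned its sign in at least 1 fit without a library. The 95% interval for GSK343 ran from −0.16 to 0.12.

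Of the enzymes that build the chain, FASN was lower with both compounds and ACACA was not called over 12 libraries. FASN encodes the fatty acid synthase (chromosome 17, 82078333 to 82098332, minus strand). It had 509, 399 and 496 CPM with GSK343+XL413, 499, 554 and 566 CPM with GSK343, 558, 508 and 495 CPM with XL413, and 578, 586 and 571 CPM with DMSO. All 9 treated libraries lay below the 3 DMSO libraries, and the treated groups overlapped each other. No overlap with DMSO was found for 33.7%, 25.2% and 28.1% of all genes with GSK343+XL413, GSK343 and XL413. The log2 fold change with GSK343+XL413 against DMSO was −0.30 ± 0.079 (adjusted p = 0.0236) and, without GSK343+XL413 replicate 2, which had the lowest level of all, −0.20 ± 0.051 (adjusted p = 0.0182). Omitting any 1 of the DMSO libraries ended the call (highest adjusted p = 0.0772), as did a fit of only these 2 groups (adjusted p = 0.0805), and the correction for transcript length and GC content gave −0.15 (adjusted p = 0.0161). GSK343 alone gave −0.10 ± 0.079 (adjusted p = 0.634) and XL413 alone −0.15 ± 0.079 (adjusted p = 0.423; −0.14 and adjusted p = 0.0276 in a fit of only these 2 groups). GSK343+XL413 gave −0.21 ± 0.079 against GSK343 (adjusted p = 0.177) and −0.15 ± 0.079 against XL413 (adjusted p = 0.378), and −0.10 and −0.0551 without GSK343+XL413 replicate 2.

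ACACA encodes acetyl-CoA carboxylase 1, which makes malonyl-CoA (chromosome 17, 37084988 to 37406818, minus strand). It had 125.2, 72.7 and 125 CPM with GSK343+XL413, 109.7, 113 and 119 CPM with GSK343, 121 and 110.3 and 112 CPM with XL413, and 108, 116 and 113 CPM with DMSO. Replicate 2 of GSK343+XL413 was the lowest of the 12 libraries and its 2 partners were the highest. The log2 fold change with GSK343+XL413 against DMSO was −0.06 ± 0.147 (adjusted p = 0.804) over all libraries and 0.16 ± 0.046 (adjusted p = 0.0323) without that library. GSK343 alone gave 0.02 ± 0.146 and XL413 alone 0.03 ± 0.147 (adjusted p = 0.974 and 0.958), estimates whose sign also turned in fits without DMSO replicate 1, and the first also without GSK343 replicate 3 and the second without XL413 replicate 1.

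The 10 genes differed in how far GSK343+XL413 replicate 2 lay from its partners. Its level divided by the mean of replicates 1 and 3 was 0.581 for ACACA, 0.795 for FASN, 0.813 for FADS1, 0.822 for ACLY, 0.892 for ELOVL6, 0.899 for SCD, 0.963 for FADS2 and 0.9985 for ACSS2, and 1.09 for SREBF1 and 1.07 for ME1. ACACA and FASN have the longest transcripts of the 10, at 9961 and 8565 nt. FADS1 and ACLY, at 4525 and 4339 nt, lay lower than the longer ELOVL6 and SCD, at 6454 and 5362 nt, and SREBF1 and ME1 have 4253 and 3371 nt. The genes that gained a GSK343+XL413 call against DMSO without this library were ACACA, SCD, ELOVL6 and FADS1. With a correction of all libraries for transcript length and GC content, SCD and ELOVL6 were also called (adjusted p = 0.000399 and 0.024) and ACACA, at 0.0243, and FADS1 were not. SCD passed also with the stricter filter of 5 CPM (0.14, adjusted p = 0.048).

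**Figure D3:**
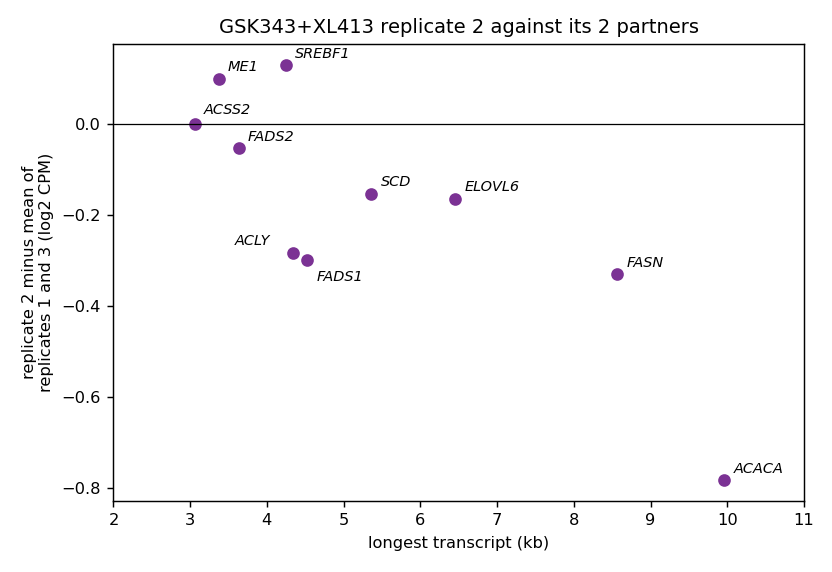
Log2 CPM of GSK343+XL413 replicate 2 minus the mean of replicates 1 and 3 for each gene, against the length of its longest transcript in kb. ACACA, at 9961 nt, lay at −0.78, FASN at −0.33 and SREBF1 at 0.13.

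Of the 3 desaturase genes among the 10, only SCD was called over all 12 libraries. It encodes stearoyl-CoA desaturase, which puts the first double bond into saturated fatty acids (chromosome 10, 100347124 to 100364834, plus strand). SCD had 257, 235 and 266 CPM with GSK343+XL413, 274, 277 and 286 CPM with GSK343, 218 and 209 and 217 CPM with XL413, and 231, 232 and 234 CPM with DMSO. The GSK343 libraries were the highest 3 and the XL413 libraries the lowest 3 of the 12, with no overlap with the other groups. Against DMSO, 25.2% and 28.1% of all genes had no overlap with GSK343 and XL413. The log2 fold change with GSK343 against DMSO was 0.26 ± 0.044 (adjusted p = 0.0129), held in 8 of 12 leave-one-out fits and lost in those that omitted a DMSO library or GSK343 replicate 3 (highest adjusted p = 0.0771). XL413 gave −0.11 ± 0.044 (adjusted p = 0.285), which passed the test in a fit of only these 2 groups (adjusted p = 0.0294) and with a correction for length and GC content (0.036).

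Set against each other, the 2 single compounds differed: SCD was higher with GSK343 than with XL413, by a log2 fold change of 0.38 ± 0.044 (adjusted p = 0.000568), which held in 12 of 12 leave-one-out fits. In this comparison 2 of the 10 genes were called, SCD higher and SREBF1 lower, where 3.53% of all genes were. Without GSK343+XL413 replicate 2 they were 4 of 10, where 11.6% of all genes were. FADS1 and FADS2 were the 2 added, and over all 12 libraries they were at 0.18 ± 0.065 and 0.14 ± 0.044 (adjusted p = 0.158 and 0.107). With GSK343+XL413 against XL413, 2 of 10 were called, again SCD higher and SREBF1 lower, where 0.784% of all genes were. Without GSK343+XL413 replicate 2, 2 were higher and 1 lower, where 252 of 15584 tested genes were called. FADS1 was the gene added, at 0.17 ± 0.034 (edgeR adjusted p = 0.0248). Over all 12 libraries SCD rose against XL413 by 0.23 ± 0.044 (adjusted p = 0.0285), held in 3 of 12 leave-one-out fits and at 0.28 without GSK343+XL413 replicate 2. It was lost when any 1 DMSO or XL413 library, GSK343 replicate 2, or GSK343+XL413 replicate 1 or 3 was omitted (highest adjusted p = 0.168). Both calls were lost in a fit of only these 2 groups (adjusted p = 0.302 for SCD and 0.114 for SREBF1). These contrasts share libraries with those against DMSO.

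With GSK343+XL413 against DMSO, SCD was at 0.12 ± 0.044 (edgeR adjusted p = 0.086), and rose by 0.18 ± 0.032 (adjusted p = 0.00232) without GSK343+XL413 replicate 2. All 3 libraries lay above DMSO, in a comparison where 33.7% of all genes had no overlap. Against GSK343, SCD was at −0.14 ± 0.044 (adjusted p = 0.12), and at −0.0938 without GSK343+XL413 replicate 2. All 3 GSK343+XL413 libraries lay below all 3 GSK343 libraries, a comparison in which 21.3% of all genes had no overlap. In that comparison 0 of the 10 genes were called by edgeR, where 0.984% of all genes were, with 4 at an unadjusted p under 0.05 (ACSS2, ME1, SCD and FASN), as had 20.4% of all genes, and DESeq2 called 1, ME1, and 3.77% of all genes.

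ELOVL6, the elongase of palmitate (chromosome 4, 110045846 to 110199199, minus strand), averaged 46.8 ± 3.44 CPM with GSK343+XL413, 48.1 ± 2.20 with GSK343, 45.3 ± 2.16 with XL413 and 43.6 ± 1.00 with DMSO. All 3 GSK343 libraries lay above all 3 DMSO libraries, in a comparison where 25.2% of all genes had no overlap. The log2 fold change of 0.14 ± 0.058 did not pass the test (edgeR adjusted p = 0.289). With GSK343+XL413 it was 0.10 ± 0.059 (adjusted p = 0.264), and 0.16 ± 0.052 (adjusted p = 0.0491) without replicate 2 of that group.

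FADS1 and FADS2 encode the delta-5 and delta-6 desaturases of polyunsaturated fatty acids and overlap on chromosome 11 (61799625 to 61829318, minus strand, and 61792980 to 61867354, plus strand). Their expected counts were fractions in 11 of 12 libraries and summed to a whole number, within 0.01, in 12 of 12, so that reads were divided between the 2 genes by estimate; FADS2 held 16.1 to 19% of the sum. FADS1 averaged 172 ± 19.9 CPM with GSK343+XL413, 185 ± 5.89 with GSK343, 163 ± 4.28 with XL413 and 168 ± 1.86 with DMSO. Its log2 fold changes against DMSO were 0.03 ± 0.065, 0.13 ± 0.065 and −0.05 ± 0.066 with GSK343+XL413, GSK343 and XL413 (adjusted p = 0.783, 0.379 and 0.809). Without GSK343+XL413 replicate 2 the first was 0.13 ± 0.034 (adjusted p = 0.0206) and the second 0.14 ± 0.031 (adjusted p = 0.0172), whereas without replicate 1 or 3 of that group the first was below 0, at −0.0235 and −0.0221.

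FADS2 averaged 35.9 ± 1.12 CPM with GSK343+XL413, 37.7 ± 1.05 with GSK343, 34.2 ± 1.19 with XL413 and 36.2 ± 0.226 with DMSO, and its differences from DMSO were −0.01 ± 0.044, 0.06 ± 0.044 and −0.08 ± 0.045 (adjusted p = 0.863, 0.627 and 0.441). The sum of both genes, chosen as a measure after the data were seen, gave 0.12 ± 0.057 with GSK343 and −0.05 ± 0.057 with XL413 against DMSO. With GSK343+XL413 the sum gave 0.02 ± 0.057, where the estimate for FADS2 alone was below 0.

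The interaction asked whether the effect of GSK343 differed in the presence of XL413. By edgeR 0 of the 10 genes were called, where 0% of all genes were (0 of 15443; 413 genes had an unadjusted p under 0.05, ACSS2 alone among the 10, and DESeq2 called 2 genes, 0 of the 10). For SREBF1 it was 0.0098 ± 0.068, with a 95% interval from −0.14 to 0.16, an estimate that lay on either side of 0 in fits without a library (−0.0425 to 0.031). For ME1 it was 0.10 ± 0.071 (adjusted p = 0.989), and 0.0589 without GSK343+XL413 replicate 2.

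Genes that steer SREBP cleavage and lipid synthesis were counted as a list of 14, of which 12 were tested. INSIG1, which retains SREBP precursors, was at 23.5 ± 1.38 CPM with GSK343+XL413, 24.6 ± 1.84 with GSK343, 14.1 ± 0.793 with XL413 and 15 ± 0.275 with DMSO, and rose by 0.71 ± 0.068 with GSK343 (adjusted p = 0.000251) and 0.65 ± 0.068 with GSK343+XL413 against DMSO (adjusted p = 0.000191; 0.60 without replicate 2). SREBF2 was at 100 ± 10.5, 107 ± 3.79, 78.2 ± 0.846 and 81 ± 0.55 CPM in the same groups and rose by 0.40 ± 0.062 with GSK343 (adjusted p = 0.00892) and by 0.30 ± 0.062 with GSK343+XL413 (adjusted p = 0.00814; 0.39 without replicate 2). In the same libraries SREBF1 fell. Both also rose against XL413, with GSK343+XL413 by 0.74 ± 0.068 and 0.36 ± 0.062 and with GSK343 by 0.80 ± 0.068 and 0.45 ± 0.062 for INSIG1 and SREBF2. SCAP, which escorts the precursors, fell by 0.21 ± 0.045 with GSK343+XL413 against DMSO (adjusted p = 0.00979), as did 2 further genes of the list. In all, 2 rose and 0 fell with GSK343, 0 were called with XL413, and 2 rose and 3 fell with GSK343+XL413, each against DMSO, where 1.17%, 0.427% and 13.9% of all genes were called. Without GSK343+XL413 replicate 2, 2 rose and 2 fell with GSK343, 0 rose and 2 fell with XL413, and 2 rose and 4 fell with GSK343+XL413. Of all genes, 6.15%, 4.85% and 15% were called there.

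Genes of cholesterol synthesis and uptake, the other SREBP branch, were set beside the 10 genes. Of 21 tested, 12 rose and 0 fell with GSK343 against DMSO, where 1.17% of all genes were called. The median log2 fold change was 0.304, against 0.0613 for the 10 genes and 0.00108 for all genes. Without GSK343+XL413 replicate 2, 16 rose and 0 fell, where 6.15% of all genes were called. With XL413, 0 of 21 were called (median −0.0103), where 0.427% of all genes were, and 2 fell without that library, where 4.85% were. With GSK343+XL413, 14 rose and 0 fell (median 0.331), 15 of 21 without replicate 2, where 13.9% and 15% of all genes were called. Against XL413, 15 rose with GSK343+XL413 and 15 with GSK343, where 0.784% and 3.53% of all genes were called. HMGCS1, which makes a precursor of mevalonate, was at 68.8 ± 2.13 CPM with GSK343+XL413, 66.7 ± 1.70 with GSK343, 40.2 ± 1.2 with XL413 and 41.7 ± 1.40 with DMSO. FDFT1, the squalene synthase, rose by 0.37 ± 0.044 with GSK343 and 0.53 ± 0.044 with GSK343+XL413, DHCR7, of the last step, by 0.41 ± 0.046 with GSK343, and MSMO1, a sterol demethylase, by 0.64 ± 0.066 with GSK343+XL413, each against DMSO. SQLE, the squalene epoxidase, rose by 0.50 ± 0.043 with GSK343+XL413 and 0.51 ± 0.043 with GSK343, each against XL413. The list was chosen with earlier results of these data known, and its difference from the 10 genes was not tested.

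**Figure D4:**
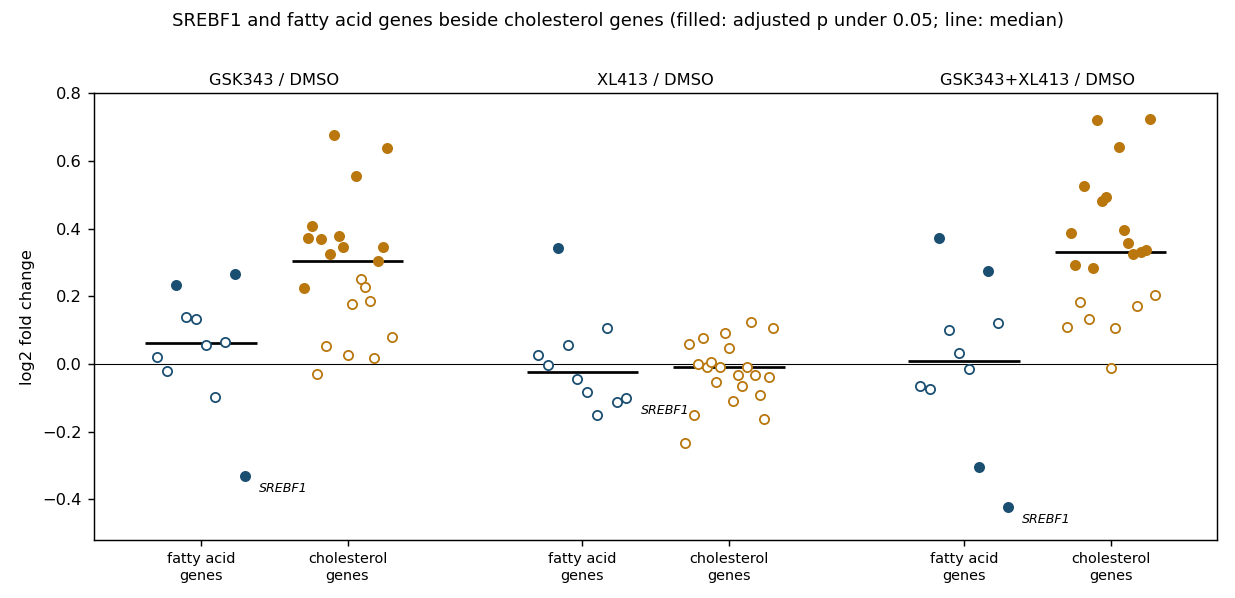
Log2 fold change of each gene with GSK343, XL413 and GSK343+XL413 against DMSO, for the 10 genes of fatty acid synthesis (blue) and 21 tested genes of cholesterol synthesis and uptake (orange). Filled points have an adjusted p under 0.05 and lines are medians. In the cholesterol list 12 and 14 genes rose with GSK343 and GSK343+XL413, and the medians were 0.304 and 0.331, against 0.0613 and 0.00887 for the 10 genes.

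Of 12 genes that supply citrate, acetyl-CoA and NADPH, IDH1, the cytosolic isocitrate dehydrogenase, rose by 0.29 ± 0.039 with GSK343 (edgeR adjusted p = 0.00332) and 0.33 ± 0.039 with GSK343+XL413 (adjusted p = 0.000465) against DMSO. With GSK343 it was the only one of the 12 called, and 0 were called with XL413, where 1.17% and 0.427% of all genes were. With GSK343+XL413 against DMSO, 3 rose and 2 fell, and 5 rose and 2 fell without replicate 2, where 13.9% and 15% of all genes were called. With GSK343+XL413 over all 12 libraries, MDH1, the cytosolic malate dehydrogenase, rose by 0.33 ± 0.055 against DMSO and by 0.26 ± 0.055 against GSK343. In the same group PC, the pyruvate carboxylase, fell by 0.27 ± 0.056 against DMSO. IDH1 rose also against XL413, by 0.31 ± 0.039 with GSK343+XL413 and 0.26 ± 0.039 with GSK343, and ME3, the mitochondrial counterpart of ME1, was lower with GSK343 than with XL413 (−0.40 ± 0.101, adjusted p = 0.0465).

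Of 15 tested genes of other elongation and desaturation steps, 0 were called with GSK343 or XL413 against DMSO, where 1.17% and 0.427% of all genes were. With GSK343+XL413 against DMSO, 2 rose and 2 fell, where 13.9% of all genes were called. FADS3, a relative of FADS1 and FADS2, rose by 0.26 ± 0.057 there and by 0.36 ± 0.057 against GSK343, and was lower with GSK343 than with XL413 (−0.33 ± 0.057). HACD1 and HACD2, paralogs that act as dehydratases in elongation, went in opposite directions with GSK343+XL413, at 0.39 ± 0.093 and −0.42 ± 0.120; the HACD2 call was lost without replicate 2 (−0.26, adjusted p = 0.0598). ELOVL2, an elongase of polyunsaturated chains, was higher with GSK343 than with XL413 (0.53 ± 0.124, adjusted p = 0.0339).

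Of 8 genes of the second acetyl-CoA carboxylase, of malonyl-CoA breakdown and of mitochondrial fatty acid synthesis, only MLYCD was called with GSK343+XL413 against DMSO. MLYCD, the malonyl-CoA decarboxylase, rose by 0.31 ± 0.077, where 13.9% of all genes were called. With GSK343 or XL413 alone 0 of the 8 were called, where 1.17% and 0.427% of all genes were. Of 18 tested genes of fatty acid activation and glycerolipid synthesis, PLIN2, a coat protein of lipid droplets, rose by 0.23 ± 0.039 with GSK343 (adjusted p = 0.0122) and 0.19 ± 0.039 with GSK343+XL413 (adjusted p = 0.00775) against DMSO, and by 0.24 ± 0.039 and 0.20 ± 0.039 against XL413. ACSL5, an acyl-CoA synthetase, rose by 0.37 ± 0.106 with GSK343+XL413, and 0 of the 18 were called with XL413, where 0.427% of all genes were. With GSK343, PLIN2 alone of the 18 was called, and 3 of 18 without GSK343+XL413 replicate 2, where 1.17% and 6.15% of all genes were called. With GSK343+XL413, 2 rose, and 4 rose and 1 fell without that replicate, where 13.9% and 15% of all genes were called. Of 13 genes of fatty acid oxidation, 0 were called with GSK343 or XL413 alone, where 1.17% and 0.427% of all genes were. CPT2, ACADVL and ACADM rose with GSK343+XL413 against DMSO, by 0.36 ± 0.064, 0.20 ± 0.052 and 0.16 ± 0.041, so that 3 of 13 were called, where 13.9% of all genes were. These are mitochondrial enzymes of acylcarnitine conversion and of the first oxidation step. ACADVL was also higher with GSK343+XL413 than with GSK343 (0.25 ± 0.052) and lower with GSK343 than with XL413 (−0.27 ± 0.052).

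Over these 7 further lists, 0 of 99 tested genes were called with XL413 against DMSO by edgeR, where 0.427% of all genes were, with 18 at an unadjusted p under 0.05, as had 13.7% of all genes. DESeq2 called 6, against 1.59% of all genes (ACADVL, CPT2, CYP51A1, FADS3, MDH1 and MID1IP1). Without GSK343+XL413 replicate 2, which enters the fit of all 12 libraries, edgeR called 5 of the 99 as higher and 4 as lower with XL413, where 4.85% of all genes were called. The 3 lists of other elongation and desaturation, of the second carboxylase and mitochondrial synthesis, and of oxidation held 36 tested genes. With GSK343 against DMSO, edgeR called 0 of the 36, where 1.17% of all genes were called. An unadjusted p under 0.05 was found for 7 of them, as for 14.3% of all genes. DESeq2 called 0 of them and 2.19% of all genes. Without GSK343+XL413 replicate 2, 1 of the 36 fell, where 6.15% of all genes were called. Apart from HACD2, the genes of these 7 lists that were called over 12 libraries in any comparison were also called without GSK343+XL413 replicate 2.

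Among 10075 tested genes with a mean of at least 3 on the log2 CPM scale, those whose level followed SREBF1 most closely over the 12 libraries were PRKCSH, TELO2, HSPA1B, PTRF and CNNM3, with Pearson's r of 0.981, 0.979, 0.969, 0.966 and 0.965, given as a description since the libraries are shared and fall into 4 treatments. Without GSK343+XL413 replicate 2 the values were 0.982, 0.979, 0.968, 0.974 and 0.968. PRKCSH, a subunit of glucosidase II, was at 701 ± 10.2 CPM with GSK343+XL413, 719.9 ± 13.9 with GSK343, 789.5 ± 14 with XL413 and 815 ± 6.54 with DMSO. HSPA1B, an inducible HSP70 whose reads are shared with its near-identical paralog HSPA1A, had the largest change of the 5, with 81.5 ± 7.10, 91.8 ± 1.32, 107 ± 7.04 and 126 ± 1.03 CPM in the same groups. The other 3, TELO2, PTRF (caveolae) and CNNM3, were likewise lowest with GSK343+XL413 and highest with DMSO.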

How the data were processed

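A375 libraries of poly-A RNA were made with a dUTP strand-specific protocol, per the labels' protocols. The deposited table holds expected counts per gene, estimated by the authors; Bowtie2 2.1.0, RSEM 1.2.15 and hg38 are named in the submitters' processing notes, and neither the annotation nor the strand setting is given in the sources used here. Reads that fit more than 1 gene are shared out by RSEM's model, which bears on FADS1 and FADS2. Columns were assigned to groups by the labels, and the 10 genes by row name.

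The counts were rounded and read into edgeR 4.0.16 (R 4.3.3). Its filterByExpr, with a minimum count of 10 and a minimum total of 15, kept 15443 genes and removed 11032. After TMM scaling, 1 quasi-likelihood model was fitted to the 12 libraries (8 residual degrees of freedom). The 7 contrasts used two-sided tests, p-values were adjusted by Benjamini-Hochberg over all tested genes, and calls have an adjusted p under 0.05. SEs come from the fold change and its F statistic. The fit was tested on simulated counts.

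Named genes are the 10, up to 3 called genes with the smallest p of each other list and comparison, and the 5 genes most like SREBF1. ELOVL2, ME3 and the other list genes come from that rule. The members and lists were chosen with earlier results of these data known. Alternatives were RLE scaling, no filter, a filter of 5 CPM in 3 libraries, DESeq2 1.42.0, a fit restricted to the 2 groups of a comparison, a length and GC correction (GENCODE 29), the replicate number as a block, each library left out, and, chosen after seeing the data, FADS1 and FADS2 summed. Over 18 pairs of same-numbered libraries the correlation of deviations from the group mean was −0.155 to 0.138, with 2 over 0.1, so the numbers were not taken as pairing. No 2 replicates of a group agreed within sampling noise (chi-square per gene of at least 2.33). Intervals cover the spread between these replicates of 1 line.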

Additional observations from a re-analysis of the deposited data

How the results depend on the processing

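The number of the 10 genes called was within 1.5 times of that reported except as follows. A fit of only the groups compared gave 3 with XL413 against DMSO, where 1394 of all genes were called. It gave 0 with GSK343+XL413 against XL413, where 18 of all genes were called. In the main fit 66 and 121 of all genes were called in these 2 comparisons. The length and GC correction gave 2 with XL413 against DMSO, 2 with GSK343+XL413 against GSK343 and 4 with GSK343 against XL413. Of all genes, 552, 616 and 1327 were called there, against 66, 152 and 545 in the main fit. With the replicate block added to that correction, the last 2 comparisons gave 1 and 4, where 403 and 1124 of all genes were called. DESeq2 gave 1 with GSK343+XL413 against GSK343, where 582 of all genes were called. Leaving out 1 library gave 0 to 4 with GSK343, 0 to 1 with XL413 and 3 to 8 with GSK343+XL413 against DMSO. It gave 1 to 3 with GSK343+XL413 against XL413 and 1 to 4 with GSK343 against XL413. Over these fits the counts of all genes called ran, in the same order, from 37 to 958, 16 to 756, 850 to 2610, 40 to 252 and 182 to 1812. The cause was not tested.

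Estimates near 0 turned their sign. The length and GC correction, without and with the replicate block, gave −0.00428 and −0.00498 for ACACA with GSK343, 0.0155 and 0.0154 for ACLY with XL413, and 0.0243 and 0.0176 for ACACA and 0.0523 and 0.0524 for FADS2 with GSK343+XL413, each against DMSO. ACLY with XL413 was at 0.0014 with RLE scaling and with DESeq2, 0.0019 with no filter, 0.0073 with the stricter filter and 0.0039 in a fit of only the groups compared. FADS2 with GSK343+XL413 was at 0.00095 with the stricter filter, which put the SREBF1 interaction at −0.00197, and at 0.024 when summed with FADS1. Over the fits without 1 library, against DMSO, ACACA ranged from −0.0083 to 0.0482 with GSK343, −0.0086 to 0.059 with XL413 and −0.20 to 0.16 with GSK343+XL413. ACLY ranged from −0.0464 to 0.0106, −0.0131 to 0.0164 and −0.14 to 0.0187 in the same order. FADS1 ranged from −0.0235 to 0.13 and FADS2 from −0.0467 to 0.0081 with GSK343+XL413, and the SREBF1 interaction from −0.0425 to 0.031.

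With the replicate block alone, SREBF1 was at −0.33 with GSK343 against DMSO. In that comparison 2 of the 10 genes were called, since ACSS2 was lost (edgeR adjusted p = 0.0817), where 108 of all genes were called. The libraries share only a number, and no other call of the 10 genes changed. The number of all genes called also moved, and the cause was not tested: with XL413 against DMSO they were 66, 1394 in a fit of only those 2 groups, and 16 to 756 without 1 library. With GSK343 against DMSO they were 180, 538 with the length and GC correction, and 37 to 958 without 1 library. With 3 libraries a group, the SEs limit what could be called among changes this small. On the log2 scale they were about 0.04 to 0.15 for contrasts of 2 groups and 0.06 to 0.21 for the interaction.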
